A study of Mus musculus with 4 samples.

Results

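The antioxidant and glutathione enzymes remove superoxide, peroxides and reactive lipid or drug products from cells. They were followed in inguinal white adipose tissue (ingWAT), the subcutaneous fat depot in which brown-like (beige) adipocytes appear in the cold. The genes were taken by symbol: superoxide dismutases (*Sod*), glutathione peroxidases (*Gpx*), peroxiredoxins (*Prdx*), thioredoxins and their reductases (*Txn*, *Txnrd*), glutaredoxins (*Glrx*), the enzymes that make and reduce glutathione (*Gclc*, *Gclm*, *Gss*, *Gsr*), glutathione S-transferases (*Gst* and the membrane-bound *Mgst*), NAD(P)H quinone dehydrogenases (*Nqo*) and heme oxygenases (*Hmox*). This gave 54 of the 19030 genes measured, and 51 of the 54 had a mean level of at least 1 FPKM (a level corrected for transcript length and for sequencing depth) and were tested. The 3 genes below that limit were *Gsta2*, *Gstt4* and *Gstm3*, at a mean of 0.085, 0.045 and 0.0275 FPKM, whereas the lowest tested genes were *Gsto2* and *Nqo1*, at 2.39 and 2.41 FPKM.

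Polyadenylated RNA was sequenced from ingWAT of C57BL/6 mice of 3 months kept at 4 °C, in 2 libraries from control mice (Ctrl) and 2 from mice lacking *Oct3* in adipocytes (cKO). For its cold challenge the study describes male mice held first at a milder temperature and then for weeks at 4 °C. *Oct3* (*Slc22a3*) encodes a transporter that takes up norepinephrine, and the question was how its loss changed the cold-exposed tissue. The cKO mice carried floxed *Oct3* alleles and a Cre driven by the adiponectin promoter, so cells other than adipocytes keep the gene. The labels call the other mice controls only, and the study describes its Ctrl mice as *Oct3* fl/fl, so both groups carry the floxed alleles. Nothing said how many mice gave a library, so the p-values measure only the spread between these libraries. From the steps between low values, the depth was estimated as 17400000 to 18150000 reads a library, so 1 library gave 72.7 reads of *Nqo1* and 15783 of *Gpx4* (both the first Ctrl library).

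*Slc22a3* stood at 17.0 and 17.7 FPKM in Ctrl and at 9.07 and 9.50 in cKO (log2 fold change −0.83 ± 0.07 (SE), adjusted p = 0.000439). The libraries also differed in cell type markers, and each difference called here ran with genotype. The macrophage sums overlapped between the groups, and the muscle sum also differed between the 2 Ctrl libraries. All 10 tested skeletal muscle genes were lower in cKO, with a summed level of 2340 and 1558 FPKM in Ctrl against 8.97 and 7.12 in cKO. All 6 brown and beige genes rose (sum 891 and 1143 against 3458 and 2950.4 FPKM), as did all 5 B cell genes (202 and 227 against 322 and 364), 5 of 6 T cell genes (81.7 and 85.7 against 113 and 149.5) and all 5 tested neutrophil genes (13.3 and 14.0 against 30.8 and 30.1; the defining *Ly6g* was at 0.06 FPKM or less in each library). Of the 8 fibroblast progenitor genes 7 fell (1517 and 1301 against 790.3 and 820.04), of the 8 macrophage genes 4 fell and 1 rose (sum 1165 and 1017 against 1062 and 1078), and 3 of 6 endothelial genes fell (200.1 and 198 against 169.8 and 177). Of the adipocyte genes *Adipoq*, *Lep* and *Retn* fell and the other 4 of 7 were not called, 1 of 4 tested erythroid genes fell, and 1 of 2 tested keratinocyte genes fell (sum under 5 FPKM in each library, *Krt5* at 0.03 or less). The 4 glandular epithelial genes were below the limit. Muscle genes were thus nearly absent from cKO and present in both Ctrl libraries; the part of muscle, lymphoid or fibroblast RNA in the results that follow was not tested. In RNA from whole tissue, fewer cells of a type and less RNA per cell cannot be told apart.

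As background, superoxide is turned into hydrogen peroxide by the dismutases, and the peroxide is then reduced by glutathione peroxidases, using glutathione, or by peroxiredoxins, using thioredoxin. Glutathione and thioredoxin are reduced again at the expense of NADPH. Glutathione S-transferases couple glutathione to electrophiles such as lipid aldehydes, and several of them also have isomerase or peroxidase activity. Many of these genes are known targets of the transcription factor Nrf2 (*Nfe2l2*), which binds the antioxidant response element (ARE) and is held back by Keap1. Respiration in mitochondria is a main source of superoxide, and brown and beige adipocytes are rich in mitochondria.

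The ARE core was looked for on both strands of the 250 bases upstream of each start (RefSeq, GRCm38.p6), since it is the sequence that many of these genes are known for. Promoters were on hand for 44 of the 51 tested genes, 65 in all. None was on hand for *Hmox1*, *Gclc*, *Gsr*, *Gsta4*, *Gstt2*, *Prdx6* or *Sod3*, so these genes were not searched. Sequence farther upstream than 250 bases was not searched for any gene. The letters TGACNNNGC stood in 8 of the 65 promoters, which is 12.3%, against 11.7% of the promoters of all genes tested and 10.2% of all promoters. Within these 250 bases the share was thus close to that of genes in general. The cyclic AMP response element TGACGTCA stood in 0 of them and in 2.45% of the promoters of genes tested. The 8 matches are printed with 25 bases on either side, 5′ to 3′ on the strand that carries the motif, with the matched letters in capitals.
Gclm, chr3:122245398-122245456, minus strand: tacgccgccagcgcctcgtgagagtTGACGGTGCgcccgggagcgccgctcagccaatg
Txnrd1, chr10:82859089-82859147, minus strand: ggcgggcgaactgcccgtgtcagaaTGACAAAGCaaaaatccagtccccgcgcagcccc
Gsta3, chr1:21240439-21240497, plus strand: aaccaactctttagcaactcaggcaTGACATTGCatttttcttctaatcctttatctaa
Prdx1, chr4:116685441-116685499, minus strand: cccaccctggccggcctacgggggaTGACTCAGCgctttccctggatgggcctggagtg
Sod1, chr16:90220681-90220739, minus strand: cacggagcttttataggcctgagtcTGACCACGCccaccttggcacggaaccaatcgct
Mgst1, chr6:138140446-138140504, minus strand: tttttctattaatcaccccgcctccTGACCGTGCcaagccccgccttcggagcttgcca
Gstm5, chr3:107895787-107895845, plus strand: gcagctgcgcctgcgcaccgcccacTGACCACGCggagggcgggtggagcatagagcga
Gstm7, chr3:107931710-107931768, minus strand: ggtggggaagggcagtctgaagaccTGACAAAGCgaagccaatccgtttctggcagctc
The match of *Prdx1* also holds TGACTCA, the letters of an AP-1 site. The nearest base of the motif lay 34 (*Gstm5*) to 126 (*Gclm*) bases upstream of the start. As the values that follow show, *Gclm* and *Txnrd1* were higher in cKO, *Gsta3* was lower, and the other 5 genes were not called.

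Between the genotypes, 10 of the 51 genes were higher in cKO and 15 were lower (limma, adjusted p under 0.05 over all genes tested). These are 19.6% and 29.4% of the genes, against 12.0% and 13.8% of the 12658 genes tested, of which 25.8% were called in either direction. The log2 fold changes of the 51 genes had a median of −0.02, against −0.01 over all genes tested. The 2 directions fell on different enzymes: the transferases (*Gst* and *Mgst*) held 11 of the 15 falls and no rise (2 rises at an unadjusted p under 0.05), and the other classes held all 10 rises and 4 falls. Both cKO libraries lay above both Ctrl libraries for 20 of the 51 genes and below them for 26, against 31.9% and 34.6% of all genes tested. With 2 libraries a group these counts depend on single libraries: 3 genes were called higher and 5 lower without Ctrl replicate 1, 5 and 12 without Ctrl replicate 2, and 6 and 9 without cKO replicate 1. Exons of an antisense gene cover part of the exon bases of *Prdx5* (19.1%), *Gss* (15.4%), *Gstm5* (13.9%), *Gstz1* (12.2%), *Prdx2* (11.5%), *Gclm* (4.7%) and *Txnrd2* (4.0%), besides *Hmox2* and *Nqo2* below, and reads there could belong to either gene.

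**Figure D1:**
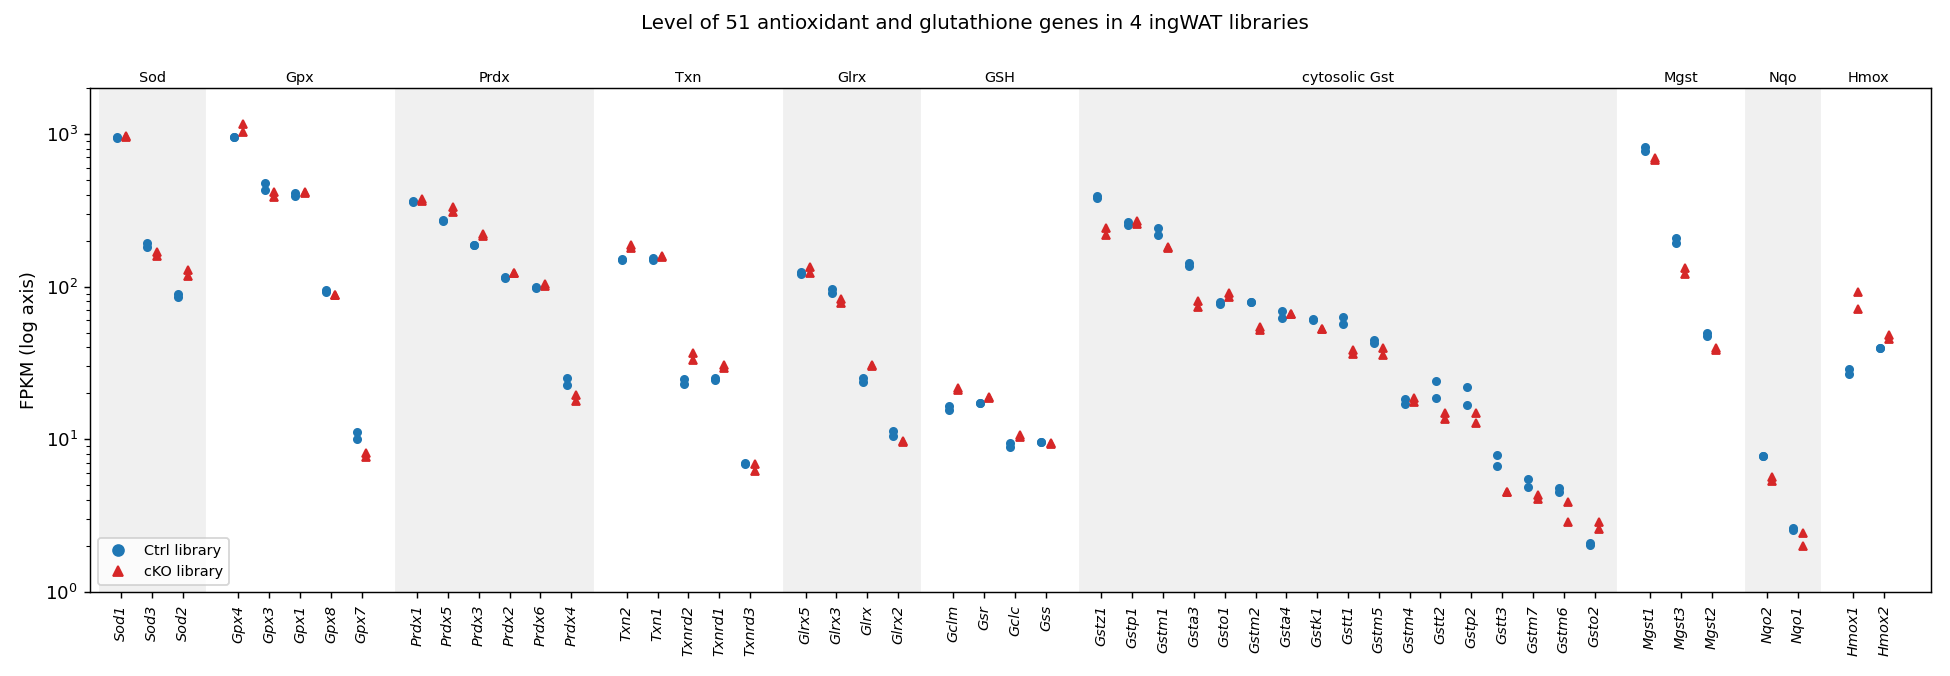
Level of the 51 tested genes in FPKM (log axis), grouped by enzyme class (GSH: glutathione synthesis and reduction; Txn: thioredoxins and their reductases) and ordered by mean level; circles are the 2 Ctrl libraries and triangles the 2 cKO libraries. The levels run from about 2 FPKM (*Gsto2*) to a mean of 1025 FPKM (*Gpx4*), and the cKO triangles lie below the Ctrl circles for most cytosolic transferases.

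**Figure D2:**
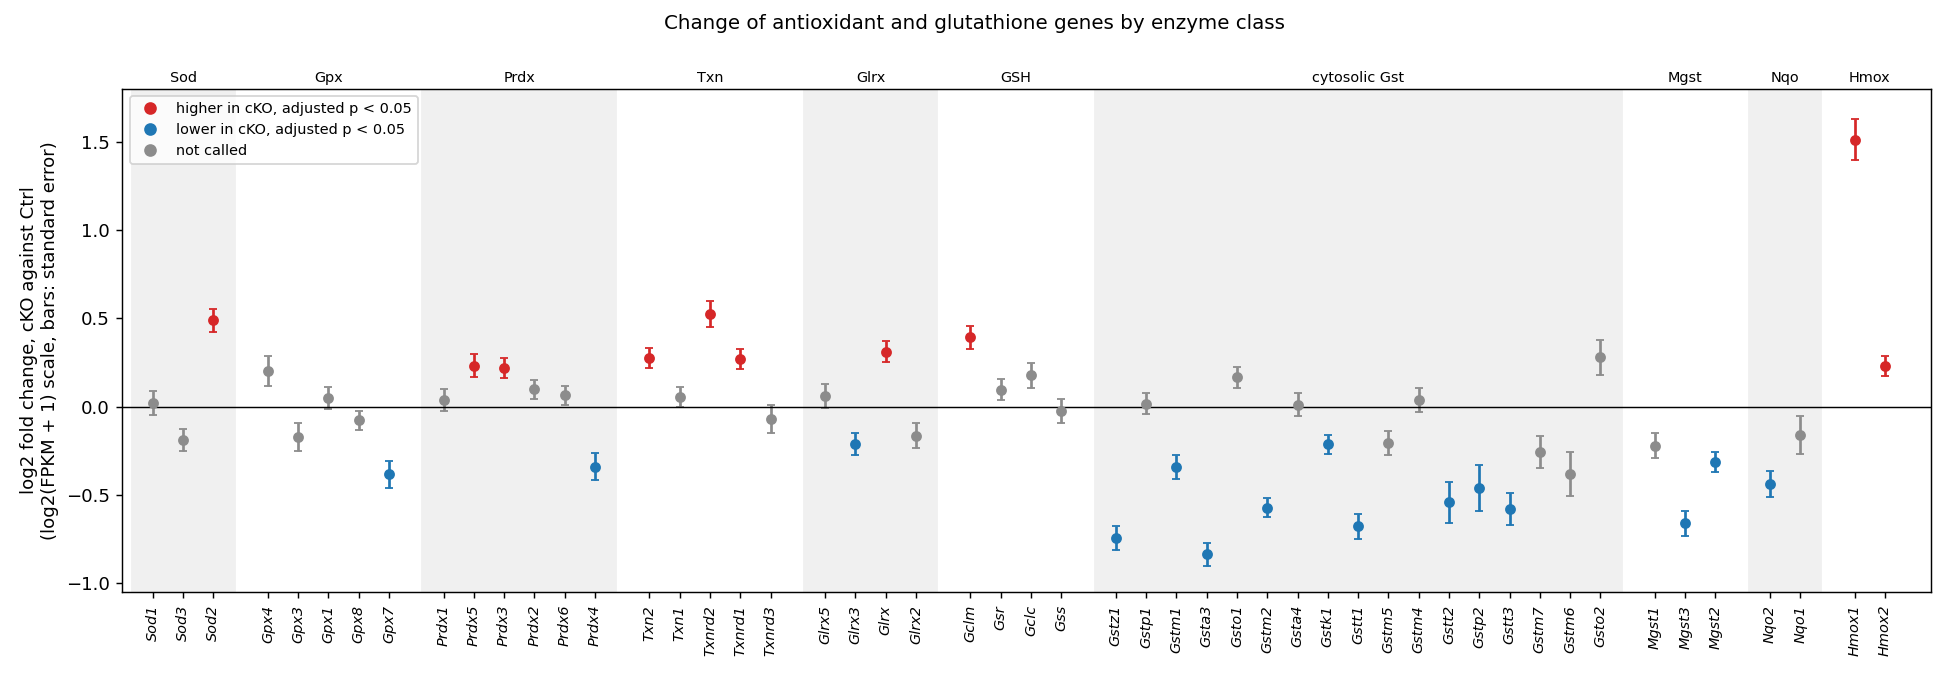
Log2 fold change of each gene (cKO over Ctrl, computed from log2(FPKM + 1)) with its standard error as bars, in the same order as the plot of levels; red genes were higher and blue genes lower at adjusted p under 0.05. The 10 rises lie outside the transferases, *Hmox1* is the highest at 1.51, and the transferases reach −0.84 (*Gsta3*).

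*Sod2*, the manganese superoxide dismutase of mitochondria, was at 85.3 and 90.0 FPKM in Ctrl and at 129 and 118 in cKO. Both cKO libraries were higher, and the gene rose (log2 fold change 0.49 ± 0.07 (SE), adjusted p = 0.00265). *Sod1*, the copper and zinc enzyme of the cytosol and the most abundant of the class, was at 950.8 and 930.9 FPKM in Ctrl and 946 and 963 in cKO, so the groups overlapped (0.02 ± 0.07, adjusted p = 0.857), and its sign turned under quantile normalization (−0.08). Of the 50-base stretches of *Sod1* 23.1% also stand in transcripts of another gene, a pseudogene, so reads could be split between them. *Sod3*, the secreted enzyme, was at 192 and 181 FPKM in Ctrl and 167 and 159 in cKO and was not called (adjusted p = 0.0645). *Sod1* was the 52nd most abundant gene of the whole table by mean FPKM, and *Sod2* the 732nd.

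None of the glutathione peroxidases rose past the threshold of limma, 1 of them (*Gpx4*) at an unadjusted p under 0.05, and 1 of the 5 fell. The fall is 20.0% of the class, against 13.8% of all genes tested. *Gpx4*, which reduces lipid hydroperoxides in membranes, had the highest level of all these genes and ranked 41st in the table, with 957 and 949 FPKM in Ctrl and 1165 and 1030.04 in cKO. Both cKO libraries were above Ctrl but they differed from each other by more than the Ctrl libraries did (log2 fold change 0.20 ± 0.09, adjusted p = 0.129). Its value rested on single libraries and on the scaling: it was 0.29 and called without cKO replicate 2 (adjusted p = 0.046), 0.11 without cKO replicate 1 (0.321) and 0.10 under quantile normalization (0.282). Of its 50-base stretches 41.6% are shared with pseudogenes. *Gpx1*, the cytosolic peroxidase, was at 408 and 391 FPKM in Ctrl against 417 and 411 in cKO. *Gpx3*, the plasma enzyme, was at 472 and 426 against 413 and 384 FPKM. Neither of these was called, nor was *Gpx8* of the endoplasmic reticulum, at 94.3 and 91.8 against 87.5 and 88.7 FPKM. *Gpx7*, also of the endoplasmic reticulum and with a low level, fell from 11.2 and 10.1 to 7.70 and 8.10 FPKM (adjusted p = 0.0117). The call of *Gpx7* was lost without Ctrl replicate 1, without cKO replicate 1 and with no filter on low values (adjusted p = 0.0577).

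Among the 6 peroxiredoxins, *Prdx3* and *Prdx5* rose, *Prdx4* fell and the other 3 were not called. These are 33.3% higher and 16.7% lower, against 12.0% and 13.8% of all genes tested. *Prdx3*, found in mitochondria, was at 188 FPKM in each Ctrl library and reached 222 and 216 in cKO (adjusted p = 0.0289). *Prdx5*, found in mitochondria and peroxisomes, was at 269 and 274 against 330.5 and 308 FPKM (adjusted p = 0.0361). The 2 calls are small in size, each log2 fold change being 0.22 or 0.23, and each was lost under 8 of the 11 alternatives. Both were lost with no filter on low values, under quantile normalization, with the replicate block (adjusted p = 0.06 and 0.0729), in eBayes without a trend, without Ctrl replicate 1 (0.168 and 0.22), without Ctrl replicate 2 (0.143 and 0.154) and without cKO replicate 1 (0.0946 and 0.119). *Prdx3* was also lost without cKO replicate 2 (0.0566), and *Prdx5* under median-of-ratios scaling (0.0575). *Prdx4*, of the endoplasmic reticulum, was at 25.1 and 22.6 FPKM in Ctrl and 17.8 and 19.5 in cKO (adjusted p = 0.0189). It was not called without Ctrl replicate 1, without cKO replicate 1 or with no filter on low values (adjusted p = 0.0838). *Prdx1*, a cytosolic enzyme and the most abundant of the 6, was at 356 and 362 against 365 and 373 FPKM (0.04 ± 0.06, adjusted p = 0.685; −0.08 under quantile normalization). *Prdx2*, also cytosolic, was at 114 and 115 against 123 and 123 FPKM, and *Prdx6*, which uses glutathione, at 97.5 and 98.9 against 104 and 101 FPKM.

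Of the 5 thioredoxin genes 3 rose and none fell in limma, nor did any at an unadjusted p under 0.05. The rises are 60.0% of the class, against 12.0% of all genes tested. *Txnrd2*, the thioredoxin reductase of mitochondria, was at 23.1 and 24.9 FPKM in Ctrl and at 36.7 and 33.1 in cKO. It had the second largest rise of the 51 genes, after *Hmox1* (log2 fold change 0.52 ± 0.07 (SE), adjusted p = 0.00287). *Txn2*, its substrate in mitochondria, was at 149 and 151 FPKM in Ctrl and 186 and 178 in cKO (0.28 ± 0.06, adjusted p = 0.0131). *Txnrd1*, the cytosolic reductase, rose from 24.4 and 25.1 to 30.6 and 29.5 FPKM (adjusted p = 0.0154). The calls of *Txn2* and *Txnrd1* were lost without Ctrl replicate 1 (adjusted p = 0.114 and 0.119), without Ctrl replicate 2 (0.0842 and 0.0697) and without cKO replicate 1 (0.059 and 0.0734). Its substrate *Txn1* was at 149 and 154 against 157 and 158 FPKM, and *Txnrd3*, a reductase best known in testis, at 6.93 and 6.97 against 6.25 and 6.91 FPKM, and neither was called.

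The glutaredoxins, which remove glutathione from proteins or carry iron-sulfur clusters, moved in both directions. *Glrx*, the cytosolic enzyme, was at 23.8 and 25.1 FPKM in Ctrl and 30.3 and 30.8 in cKO (0.31 ± 0.06, adjusted p = 0.00974; 0.0946 without Ctrl replicate 1). *Glrx5*, the mitochondrial iron-sulfur cluster protein and the most abundant, was at 125 and 120.3 FPKM in Ctrl and 134 and 122 in cKO, overlapping (0.06 ± 0.07, adjusted p = 0.56), and turned to −0.01 without cKO replicate 1. *Glrx2* was at 10.6 and 11.4 against 9.70 and 9.64 FPKM and was not called. *Glrx3* fell from 95.8 and 90.4 to 78.1 and 82.6 FPKM (adjusted p = 0.0431), with 45.4% of its 50-base stretches shared with a pseudogene. It lost its call under 8 of the 11 alternatives, among them each left-out library. The others were no filter on low values (adjusted p = 0.0925), quantile normalization (0.0549), the replicate block (0.0604) and eBayes without a trend (0.0908).

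Glutathione is made in 2 steps, of which the first, by glutamate-cysteine ligase, limits the rate. *Gclm*, the modifier subunit of the ligase, was at 15.6 and 16.5 FPKM in Ctrl and at 21.8 and 20.9 in cKO (0.39 ± 0.06, adjusted p = 0.00513; 0.0665 without Ctrl replicate 1). *Gclc*, the catalytic subunit, was at 8.87 and 9.47 FPKM in Ctrl and at 10.4 and 10.6 in cKO. Its cKO libraries were both above Ctrl and the gene was not called (adjusted p = 0.107). *Gss*, which adds glycine, was at 9.54 and 9.61 against 9.30 and 9.50 FPKM, and *Gsr*, which reduces oxidised glutathione, at 17.4 and 17.4 against 18.8 and 18.5 FPKM, and neither was called.

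The ratio of related enzymes within a library does not change when a library is multiplied by 1 factor, although quantile normalization can change it. The pairs given here were chosen after the values had been seen and were not tested. *Sod2* was at 0.0898 and 0.0967 of the level of *Sod1* in Ctrl and at 0.137 and 0.122 in cKO. *Txn2* over *Txn1* was 1.0 and 0.979 in Ctrl and 1.19 and 1.13 in cKO, and *Txnrd2* over *Txnrd1* was 0.947 and 0.990 against 1.2 and 1.12. In each of these pairs the mitochondrial enzyme gained on its cytosolic counterpart in both cKO libraries. *Glrx2*, listed as mitochondrial, and the cytosolic *Glrx* were not among the pairs and moved the other way. *Glrx2* was at 10.6 and 11.4 FPKM in Ctrl and 9.70 and 9.64 in cKO, and *Glrx* at 23.8 and 25.1 against 30.3 and 30.8. *Prdx3* over *Prdx1* was 0.528 and 0.520 in Ctrl and 0.609 and 0.579 in cKO, whereas *Prdx4* over *Prdx1* was 0.0706 and 0.0624 in Ctrl and 0.0487 and 0.0524 in cKO. *Gclm* over *Gclc* was 1.75 and 1.74 against 2.10 and 1.97.

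**Figure D3:**
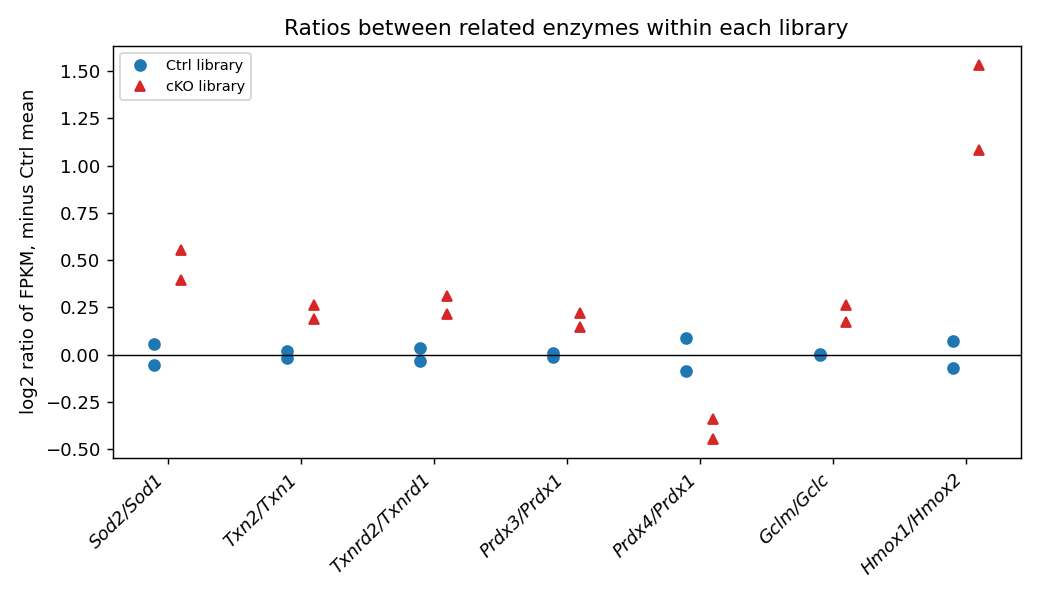
Log2 ratio of the FPKM of related enzymes within each library, less the mean of the 2 Ctrl libraries for that pair; circles are Ctrl and triangles cKO libraries. The cKO triangles lie above both Ctrl circles for *Sod2*/*Sod1*, *Txn2*/*Txn1*, *Txnrd2*/*Txnrd1*, *Prdx3*/*Prdx1*, *Gclm*/*Gclc* and *Hmox1*/*Hmox2*, and below them for *Prdx4*/*Prdx1*.

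By compartment, 5 of the 8 genes listed as mitochondrial rose (*Sod2*, *Prdx3*, *Prdx5*, *Txn2* and *Txnrd2*), 1 fell (*Gstk1*) and *Glrx2* and *Glrx5* were not called. These are 62.5% higher and 12.5% lower, against 12.0% and 13.8% of all genes tested. Both compartment lists given here were chosen with earlier results of these data known, so their shares only describe the listed genes. The summed level of the 8 genes was 912 and 921 FPKM in Ctrl and 1102 and 1037 in cKO, and the middle of their log2 fold changes was 0.23. In the same cKO libraries all 6 brown and beige marker genes were higher, as given above. The part of brown and beige cells in the mitochondrial rises was not tested. Of the 5 genes of secreted or endoplasmic reticulum enzymes, *Gpx7* and *Prdx4* fell, none rose in limma, also not at an unadjusted p under 0.05, and all 5 had both cKO libraries below both Ctrl libraries, as had 34.6% of all genes tested (median −0.19). The 7 called fibroblast progenitor genes, among them *Dcn* and *Col3a1* of the extracellular matrix, fell in the same libraries, and their part in this was not tested.

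The cytosolic transferases were the class with the most falls: 9 of the 17 tested genes were lower in cKO and 0 higher by limma (2 of those above Ctrl, *Gsto1* and *Gsto2*, had an unadjusted p under 0.05). The share called lower was 52.9%, against 13.8% of all genes tested. The log2 fold changes of the class had a median of −0.34, and their summed level went from 1506 and 1444 FPKM in Ctrl to 1136 and 1151 in cKO. Here *Gstk1* and *Gstz1*, which act in mitochondria or in the breakdown of tyrosine, are counted with the class by their symbols.

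*Gsta3*, an alpha class transferase that also isomerises steroids, had the largest fall of the 51 genes. It was at 142 and 136 FPKM in Ctrl and at 73.8 and 81.0 in cKO, and its mean level was 44.3% lower (log2 fold change −0.84 ± 0.07 (SE), adjusted p = 0.000414). *Gsta4*, the alpha class enzyme that conjugates the lipid aldehyde 4-hydroxynonenal, was at 62.0 and 69.0 FPKM in Ctrl and 65.7 and 66.2 in cKO, overlapping. *Gstz1*, the zeta class enzyme maleylacetoacetate isomerase of tyrosine breakdown, was the most abundant of the cytosolic transferases in Ctrl. It was at 389.8 and 377 FPKM in Ctrl and at 217 and 241 in cKO (−0.74 ± 0.07, adjusted p = 0.000805). *Gstk1*, the kappa class enzyme of mitochondria and peroxisomes, fell from 61.7 and 60.7 to 52.8 and 52.6 FPKM (adjusted p = 0.0259), a call lost under each left-out library (0.0813 without cKO replicate 2 to 0.15 without Ctrl replicate 1) and in eBayes without a trend (0.0657).

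The theta class lies in 1 cluster on chr10, and its 3 tested genes all fell, against 13.8% of all genes tested that were called lower. *Gstt1* was at 63.7 and 57.0 FPKM in Ctrl and at 38.6 and 35.9 in cKO (−0.68 ± 0.07, adjusted p = 0.00121). *Gstt3*, its neighbour, was at 7.85 and 6.72 against 4.53 and 4.54 FPKM (−0.58 ± 0.09, adjusted p = 0.00464; 0.0671 without Ctrl replicate 1), and 26.0% of its 50-base stretches are shared with an overlapping gene model, *Gm20441*. *Gstt2* fell from 23.9 and 18.6 to 14.9 and 13.5 FPKM (adjusted p = 0.0143), the Ctrl libraries being further apart than the cKO libraries. This call was lost without Ctrl replicate 1, without either cKO library and with no filter on low values (adjusted p = 0.0988). The fourth gene of the cluster, *Gstt4*, was at 0.12 FPKM or less in each library.

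The mu class lies in 1 cluster on chr3, in the order *Gstm5*, *Gstm7*, *Gstm6*, *Gstm3*, *Gstm2*, *Gstm1* and *Gstm4*. *Gstm1* and *Gstm2*, next to each other, were the 2 that fell. They are 33.3% of the 6 tested genes of the cluster, against 13.8% of all genes tested that were called lower. *Gstm2* was at 79.0 FPKM in each Ctrl library and reached 51.7 and 54.0 in cKO (−0.57 ± 0.06, adjusted p = 0.000829). *Gstm1*, the most abundant of the cluster, fell from 240.3 and 216 to 181 and 178 FPKM (adjusted p = 0.0116), with 23.1% of its 50-base stretches shared with other genes of the family or pseudogenes. Without Ctrl replicate 1, without cKO replicate 2 and with no filter on low values (adjusted p = 0.0607) the call of *Gstm1* was lost. *Gstm4*, the next gene, was at 18.4 and 17.1 against 17.7 and 18.7 FPKM, overlapping. *Gstm5* (42.6 and 44.6 against 35.8 and 39.6 FPKM), *Gstm6* (4.50 and 4.79 against 2.86 and 3.87) and *Gstm7* (5.52 and 4.87 against 4.06 and 4.31) had both cKO libraries below Ctrl and were not called. *Gstm3* was listed at 0 FPKM in 3 of the libraries and at 0.11 in the other.

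The pi class genes *Gstp1* and *Gstp2* lie side by side on chr19 and share much of their sequence: 62.3% of the 50-base stretches of *Gstp1* and 72.6% of those of *Gstp2* also stand in another gene, so their split is uncertain. *Gstp1* was at 264 and 254 FPKM in Ctrl and 267 and 257 in cKO, overlapping. *Gstp2* was at 22.1 and 16.7 against 14.8 and 12.7 FPKM and fell (adjusted p = 0.0394). That call was lost under both other scalings of the libraries (adjusted p = 0.0625 and 0.057), with no filter on low values (0.164) and in eBayes without a trend (0.0701). It was also lost without Ctrl replicate 1 and without either cKO library. The sum of the 2 genes was 286 and 271 FPKM in Ctrl and 282 and 269.9 in cKO. The omega class, which reduces dehydroascorbate, was the one class of cytosolic transferases with both tested genes above Ctrl: *Gsto1* at 76.6 and 79.6 against 90.4 and 85.0 FPKM and *Gsto2* at 2.04 and 2.09 against 2.58 and 2.86, neither called (adjusted p = 0.0843 and 0.084).

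The 3 microsomal transferases all had lower levels in both cKO libraries, and 2 were called. Among all genes tested, 34.6% had both cKO libraries below both Ctrl libraries, and 13.8% were called lower. *Mgst3*, a membrane transferase and peroxidase, was at 208 and 192 FPKM in Ctrl and at 120.2 and 132 in cKO (−0.66 ± 0.07, adjusted p = 0.00126). *Mgst2*, which can make leukotriene C4, fell from 49.9 and 47.7 to 38.5 and 39.5 FPKM (adjusted p = 0.00761; 0.0797 without Ctrl replicate 1). *Mgst1*, the most abundant transferase in the tissue and the 84th most abundant gene, was at 813 and 774 FPKM in Ctrl and at 670.2 and 689.9 in cKO (−0.22 ± 0.07, adjusted p = 0.0566). It was called under quantile normalization (−0.37, adjusted p = 0.00787) and with only genes of at least 5 FPKM tested (adjusted p = 0.048). All *Gst* and *Mgst* genes together summed to 2577 and 2458 FPKM in Ctrl and to 1965 and 2013 in cKO. In the same cKO libraries 7 of the 8 fibroblast progenitor genes were called lower. Of the 7 adipocyte genes *Adipoq*, *Lep* and *Retn* fell, and *Plin1*, *Lipe*, *Pnpla2* and *Fabp4* were not called. The part of these cells in the falls of the transferases was not tested.

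*Hmox1*, the inducible heme oxygenase that breaks heme down to biliverdin, iron and carbon monoxide, had the largest change of the 51 genes. It was at 29.1 and 26.7 FPKM in Ctrl and at 92.3 and 71.4 in cKO, and its mean level was 2.94 times that of Ctrl (log2 fold change 1.51 ± 0.12 (SE), adjusted p = 0.000396). The cKO libraries differed from each other by less than their distance from Ctrl. *Hmox2*, the constitutive enzyme, was at 39.4 and 39.8 against 45.3 and 47.9 FPKM (adjusted p = 0.0259), and 40.2% of its exon bases lie under exons of the antisense gene *Cdip1*. The call of *Hmox2* was lost without either Ctrl library and without cKO replicate 2. It was also lost with no filter on low values (adjusted p = 0.056) and in eBayes without a trend (0.0625). *Hmox1* was thus below *Hmox2* in both Ctrl libraries, at 0.739 and 0.671 of its level, and above it in both cKO libraries, at 2.04 and 1.49 times its level. Macrophages are a known source of *Hmox1*, and of the 8 macrophage genes *Cd163*, *Mrc1*, *Csf1r* and *C1qa* fell while *Cd68* rose in cKO, and *Adgre1*, *C1qb* and *Lyz2* were not called; their part in the rise of *Hmox1* was not tested.

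The quinone dehydrogenases had low levels. *Nqo2* was at 7.83 FPKM in each Ctrl library and reached 5.36 and 5.68 in cKO (−0.44 ± 0.07, adjusted p = 0.00614; 0.0776 without Ctrl replicate 1 and 0.0625 without Ctrl replicate 2), and 18.9% of its exon bases lie under the antisense gene *Serpinb6a*. *Nqo1*, a much used readout of Nrf2, was at 2.64 and 2.55 FPKM in Ctrl and 2.01 and 2.43 in cKO and was not called (adjusted p = 0.315).

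The genes around these enzymes were taken as 5 lists, with 72 of 79 genes tested, of which 19 were higher and 12 lower in cKO, or 26.4% and 16.7% against 12.0% and 13.8% of all genes tested; the share of falls was thus near that of genes in general. Without Ctrl replicate 1 the counts were 5 and 1, without Ctrl replicate 2 they were 7 and 3, and without cKO replicate 1 they were 12 and 6. Of the 31 calls, 6 (*Me3*, *Maff*, *Oplah*, *Srxn1*, *Pon2* and *Cyba*) were kept whichever library was left out. The named genes of each list are those with its largest rise and fall, with 3 regulators or enzymes of general interest (*Nfe2l2*, *Keap1*, *Cat*), and most others are named where a count is 5 or less.

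Of the 11 regulators of Nrf2, 2 rose and none fell in limma, also not at an unadjusted p under 0.05. The 2 rises are 18.2% of these genes, against 12.0% of all genes tested. *Nfe2l2* itself was at 36.5 and 37.1 FPKM in Ctrl and 34.7 and 36.1 in cKO (−0.05 ± 0.06, adjusted p = 0.536), and *Keap1*, which marks Nrf2 for breakdown, at 23.3 and 23.8 against 25.2 and 24.5 (0.08 ± 0.06, adjusted p = 0.367). *Maff*, a small Maf protein that pairs with Nrf2, was at 4.07 and 4.43 FPKM in Ctrl and 12.97 and 9.37 in cKO (1.2 ± 0.14, adjusted p = 0.00142). The other rise was *Sqstm1*, the autophagy receptor p62 that binds Keap1, from 163 and 159.8 to 203 and 189.96 FPKM (adjusted p = 0.0149; 0.106 and 0.107 without Ctrl replicate 1 or 2 and 0.0653 without cKO replicate 1). The repressors *Bach1* and *Bach2* were not called, nor were the small Maf genes *Mafg* and *Mafk*.

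Of the 11 genes that supply NADPH, 5 rose and 1 fell (45.5% and 9.09%, against 12.0% and 13.8% of all genes tested). *Me3*, the NADP-linked malic enzyme of mitochondria, went from 0.81 and 1.59 to 5.29 and 4.02 FPKM (1.38 ± 0.19, adjusted p = 0.00268). The other rises were *G6pdx* and *Pgd* of the pentose phosphate pathway, *Idh2* of mitochondria and *Mthfd2* of the mitochondrial folate cycle. Their log2 fold changes ran from 0.26 (*Idh2*) to 0.49 (*Mthfd2*). All of these calls were lost without either Ctrl library, and those of *G6pdx* and *Idh2* also without cKO replicate 1. *Idh1*, the cytosolic isocitrate dehydrogenase, fell from 149.8 and 155 to 126 and 133 FPKM (−0.24 ± 0.06, adjusted p = 0.0255), a call lost without either Ctrl library and without cKO replicate 1 (adjusted p = 0.115, 0.149 and 0.101). *Me1*, the cytosolic malic enzyme and the most abundant of the list, was at 996 and 1029 against 958 and 948 FPKM and was not called.

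Of the 15 tested genes of glutathione precursor supply and turnover, 3 rose and 3 fell. Each is 20.0% of these genes, against 12.0% higher and 13.8% lower among all genes tested. *Oplah*, which turns 5-oxoproline back into glutamate, was at 41.1 and 42.5 FPKM in Ctrl and at 67.2 and 60.3 in cKO (0.59 ± 0.07, adjusted p = 0.00142). The other rises were *Slc25a39*, which carries glutathione into mitochondria (180 and 178 against 237 and 215 FPKM, adjusted p = 0.0111, or 0.101 and 0.0911 without Ctrl replicate 1 or 2), and *Slc3a2*, a subunit of amino acid transporters (log2 fold change 0.22). *Chac1*, which cleaves glutathione, had the largest fall at a low level, from 2.93 and 2.14 to 1.63 and 0.88 FPKM (−0.66 ± 0.19, adjusted p = 0.0397). Its call was lost without Ctrl replicate 1, Ctrl replicate 2 or cKO replicate 2 (adjusted p = 0.254, 0.0844 and 0.143) and under both other scalings (0.0559 and 0.0848). *Ggt5*, which cleaves glutathione outside the cell, and *Anpep*, which cleaves the product further, also fell (log2 fold changes −0.58 and −0.36). The calls of *Slc3a2* and *Anpep* were lost whichever library was left out, and that of *Ggt5* was lost without Ctrl replicate 1. *Slc7a11*, the cystine transporter, was below the limit, at 0.40 to 0.91 FPKM.

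Among 26 other redox enzymes, 4 rose and 5 fell, shares (15.4% and 19.2%) that were close to those of all genes tested. *Srxn1*, sulfiredoxin, which reactivates oxidised peroxiredoxins, was at 20.4 and 22.2 FPKM in Ctrl and 34.3 and 30.3 in cKO (0.57 ± 0.08, adjusted p = 0.00274). The other rises were *Sesn2* (a stress-induced sestrin), *Msrb2* (a methionine sulfoxide reductase of mitochondria) and *Aifm2* (which reduces ubiquinone in membranes), at log2 fold changes of 0.41, 0.26 and 0.22. *Oxr1*, an oxidation resistance protein, fell from 26.5 and 25.7 to 18.5 and 20.9 FPKM (−0.39 ± 0.07, adjusted p = 0.00899; 0.0976 without Ctrl replicate 1 and 0.0618 without Ctrl replicate 2), as did the paraoxonases *Pon2* and *Pon3*, *Msrb3* and *Txndc17* (−0.26 to −0.39). *Cat*, the catalase of peroxisomes, was at 362 and 367 FPKM in Ctrl and 347 and 343 in cKO (−0.08 ± 0.06, adjusted p = 0.374), although it was called lower under quantile normalization (−0.20, adjusted p = 0.0304).

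Of the 9 tested oxidant sources, 5 rose and 3 fell (55.6% and 33.3%, against 12.0% and 13.8% of all genes tested). The rises included *Rac2*, an activator of the phagocyte NADPH oxidase (39.8 and 42.5 against 55.0 and 64.2 FPKM, 0.52 ± 0.08, adjusted p = 0.00481; 0.0697 without Ctrl replicate 1), and its subunits *Cyba*, *Ncf1* and *Ncf4*, with log2 fold changes of 0.42 (*Ncf1*) to 0.45 (*Cyba*). The catalytic subunit *Cybb* was at 12.9 and 12.6 against 13.1 and 14.1 FPKM and was not called (adjusted p = 0.405). These are mostly genes of white blood cells. In the same libraries all 5 B cell genes and all 5 tested neutrophil genes were higher, with *Mpo* of neutrophils at 0.09 FPKM or less. Of the 8 macrophage genes, by contrast, 4 fell and 1 rose. The part of those cells was not tested. *Nos2*, the inducible nitric oxide synthase, fell from 4.19 and 3.53 to 2.23 and 2.67 FPKM (−0.49 ± 0.11, adjusted p = 0.0195), a call lost without Ctrl replicate 1, Ctrl replicate 2 or cKO replicate 1 (adjusted p = 0.164, 0.0587 and 0.0891). The other falls were *Nox4*, an oxidase that makes hydrogen peroxide (1.63 and 1.78 against 1.0 and 0.95 FPKM), and *Xdh*, xanthine dehydrogenase (50.9 and 49.0 against 38.7 and 36.4). The call of *Nox4*, at a low level, was lost whichever library was left out, and that of *Xdh* was lost without Ctrl replicate 1.

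**Figure D4:**
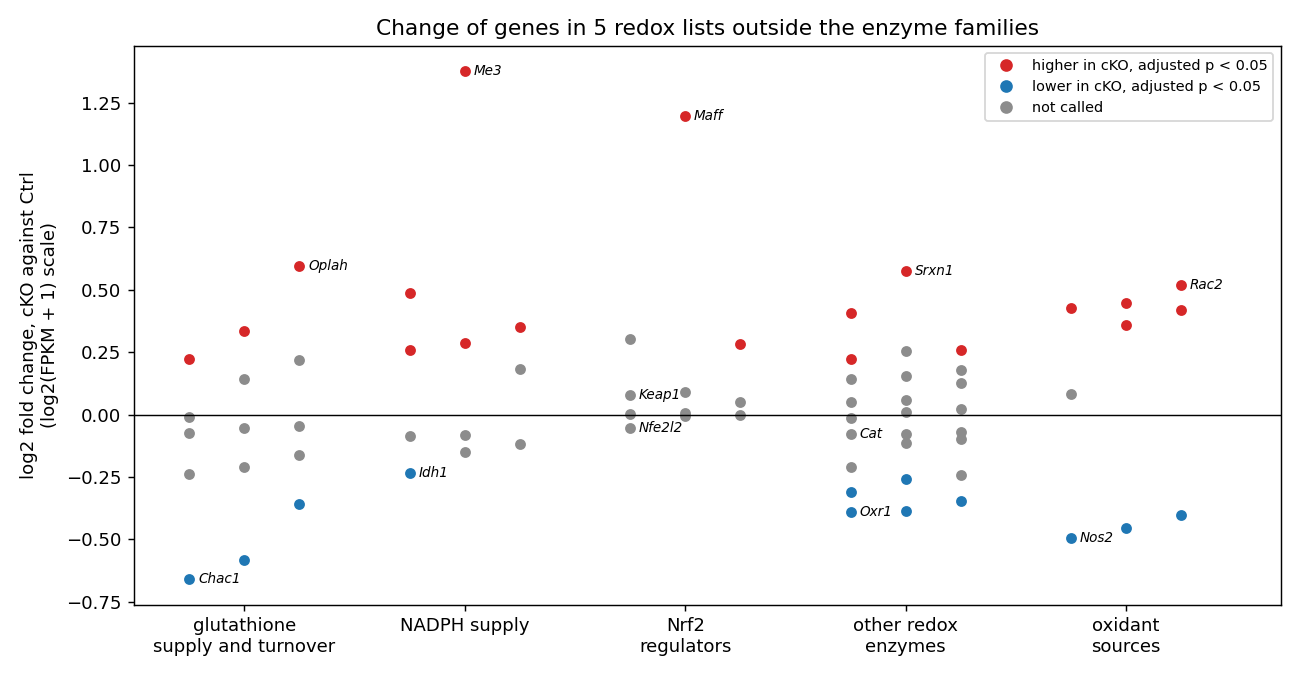
Log2 fold change (cKO over Ctrl, computed from log2(FPKM + 1)) of each of the 72 tested genes in 5 lists around the enzyme families; red genes were higher and blue genes lower at adjusted p under 0.05, and points are spread sideways for legibility. *Me3* (1.38) and *Maff* (1.2) lie highest, *Chac1* (−0.66) lowest, and *Nfe2l2*, *Keap1* and *Cat* lie within 0.08 of 0.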

How the data were processed

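The authors sequenced polyadenylated RNA (single-end reads of 50 bases, BGISEQ-500) and deposited FPKM for 19030 genes in the 4 libraries. The submitters' processing notes name HISAT2 2.0.4, RSEM 1.2.12 and mm10; scaling between libraries and the use of strand in counting are not given in the sources used here. Reads of genes with antisense partners therefore cannot be told apart.

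Genes averaging 1 FPKM or more were compared on log2(FPKM + 1) with limma 3.58.1 (R 4.3.3, eBayes with a trend, two-sided) and Benjamini-Hochberg adjustment over 12658 genes, at adjusted p under 0.05. Fold changes on this scale understate those of low genes. The fit was tested on simulated data. Full statistics are given for the most abundant gene of each class and the 6 largest rises and falls, and in the lists for the largest rise and fall. The members and lists were chosen with earlier results of these data known. The result of 1 listed gene is not reported here.

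Depth was estimated from FPKM steps of 299 short RNA genes (400 bases or less); 85.1% to 91.1% of the values used were whole reads within 0.1. Sharing of sequence was the percent of 50-base stretches of a gene found in GENCODE vM21 transcripts of other genes. Replicate numbers were not paired in the labels. Promoters are RefSeq's, and Python 3.11.15 was used for other steps.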

Additional observations from a re-analysis of the deposited data

How the results depend on the processing

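Each result was refitted under 11 alternatives. The 25 calls among the 51 genes kept their sign under every alternative run; 8 stayed called under all of them (*Hmox1*, *Txnrd2*, *Sod2*, *Gsta3*, *Gstz1*, *Gstt1*, *Mgst3* and *Gstm2*) and 15 under all that kept the 4 libraries. With 1 library left out, the genes called higher numbered 3 to 9 and those called lower 5 to 12, the 5 lists gave 5 to 17 and 1 to 10, all genes called were 877 to 2429, and the log2 fold changes of the 51 genes had a median of −0.058 to −0.01. Fits of 3 libraries assume that a lone library varies like the others. Without the filter on low values, 9 of the 51 genes were called lower, the 5 lists gave 6 higher and 4 lower, all genes called were 1762, and the median was −0.006. It was 0.011 with a mean FPKM of at least 5 and −0.08 under quantile normalization. Both filter settings change which genes enter the median and leave the log2 fold change of each gene as it was. The cause of the shift under quantile normalization was not tested. Under quantile normalization the log2 fold changes of *Prdx1* and *Sod1* turned to −0.0783 and −0.0802, and with 1 library left out that of *Glrx5* ran from −0.0112 (without cKO replicate 1) to 0.1293. The replicate numbers do not pair the libraries (correlation of their deviations 0.0148); with the replicate number as a block, 8 genes were called higher and 16 lower, and 22 of the 25 calls remained. Depth limits the low genes most.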
